A study of Mus musculus with 12 samples.

Results

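The 10 genes described here keep iron in balance: the liver hormone hepcidin and its mouse paralog (Hamp, Hamp2), the transferrin receptors (Tfrc, Tfr2), the exporter ferroportin (Slc40a1), transferrin (Trf), the ferritin chains (Fth1, Ftl1), and a ligand and a target gene of BMP signaling (Bmp6, Id1). They were taken by name, and all 10 were found among the 47729 gene identifiers of the count files. All 10 passed the filter on low counts, as did 16823 genes in all.

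Liver RNA was sequenced from 12 male C57BL/6 mice, 4 per group. Healthy mice were wild type, had neither streptozotocin nor the high-fat diet, and received vehicle. STAM mice, a model of non-alcoholic steatohepatitis (NASH) on a diabetic background, were injected once with 200 µg streptozotocin at 2 days of age, which destroys beta cells of the pancreas, and ate a diet with 60% of its energy from fat from week 4. They received vehicle or 10 mg/kg I-BET151, an inhibitor that keeps the BET bromodomain proteins from binding acetylated histones, each day from week 6 to week 9, when livers were collected. The carrier liquid given to vehicle mice was not the one in which I-BET151 was suspended, so drug and carrier cannot be told apart in that comparison. The model joins insulin loss and diet, and their parts cannot be separated here.

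Hepcidin is made by hepatocytes and secreted into blood, where it binds ferroportin on other cells and has it degraded, so that less iron leaves the gut and macrophages. Its transcription is driven by BMP6 and BMP2 from liver endothelium, which act through SMAD proteins in hepatocytes, and by IL-6 through STAT3. It is held down by the erythroid hormone erythroferrone when red cell production is high. Cells sense their own iron with the iron regulatory proteins, which bind hairpins called iron-responsive elements in the mRNAs of ferritin, ferroportin and the transferrin receptor.

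The sequences that matter most for these rules are the hepcidin promoters and the iron-responsive elements. The 250 bases before the RefSeq start sites of Hamp and Hamp2 (GRCm38.p6, minus strand, chr7:30944030-30944279 and chr7:30924182-30924431) are shown because both genes moved together from mouse to mouse below. Capitals mark the 6 bases at the position of the BMP-responsive element, GGCGCC in Hamp, and the STAT site TTCTTGGAA.
Hamp: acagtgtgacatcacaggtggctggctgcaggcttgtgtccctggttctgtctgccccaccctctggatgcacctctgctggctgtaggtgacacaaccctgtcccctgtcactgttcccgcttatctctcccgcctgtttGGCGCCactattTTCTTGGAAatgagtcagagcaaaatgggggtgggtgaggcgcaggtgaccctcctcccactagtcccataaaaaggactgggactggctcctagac
Hamp2: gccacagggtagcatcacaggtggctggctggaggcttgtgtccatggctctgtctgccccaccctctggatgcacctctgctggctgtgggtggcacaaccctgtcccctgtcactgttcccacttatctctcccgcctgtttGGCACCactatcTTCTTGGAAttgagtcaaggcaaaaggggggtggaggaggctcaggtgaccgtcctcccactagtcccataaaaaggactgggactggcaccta

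Over 247 aligned bases the 2 promoters were 91.9% identical, with 20 substitutions. One of them, G145A (Hamp base, position counted from 1 at the first base shown for Hamp, Hamp2 base), lies inside the GGCGCC of Hamp, which starts 109 bases before the start site. TTCTTGGAA starts 97 bases before the start of Hamp and 94 before that of Hamp2. Searched on both strands in all 32851 RefSeq promoter windows, GGCGCC was present in 9.59%, TTCTTGGAA in 0.365%, and GGCGCC together with TTCNNNGAA, which includes TTCTTGGAA, in 0.368%. A match is a description of the letters and not of a bound factor. The mature transcripts are also close, 94.6% identical over 410 aligned bases, with a longest identical run of 87 bases. Reads from such a stretch can be lost or assigned to the other gene when only unique alignments are counted.

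Iron-responsive elements were searched in annotated UTRs as the loop CAGTG followed by A, C or T, flanked on each side by 5 bases that can pair with each other (G with T allowed) and with a C just before them. Of 21877 protein-coding genes, 123 (0.562%) held such a hairpin, and 4 of the 10 genes were among them. They are printed 5′ to 3′ with the loop in capitals (GRCm38, GENCODE M21), since the place of the hairpin, before or after the coding region, decides whether binding blocks translation or protects the mRNA.
Fth1, 5′ UTR, chr19:9982733-9982759, plus strand: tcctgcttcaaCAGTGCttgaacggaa
Ftl1, 5′ UTR, chr7:45459780-45459806, minus strand: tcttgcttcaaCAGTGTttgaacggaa
Slc40a1, 5′ UTR, chr1:45925466-45925492, minus strand: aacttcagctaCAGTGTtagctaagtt
Tfrc, 3′ UTR, chr16:32631220-32631246, plus strand: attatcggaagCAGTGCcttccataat
Tfrc, 3′ UTR, chr16:32631599-32631625, plus strand: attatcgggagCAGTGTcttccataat
Tfrc, 3′ UTR, chr16:32631664-32631690, plus strand: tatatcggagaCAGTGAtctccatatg
Tfrc, 3′ UTR, chr16:32631711-32631737, plus strand: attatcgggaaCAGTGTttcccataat

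Total counts per mouse lay between 34711229 and 53365596. Levels are given as CPM, read counts scaled by the TMM-normalized size of each library, and differences come from edgeR's quasi-likelihood fit of all 12 mice with Benjamini-Hochberg adjustment over all tested genes. Calls were made at an adjusted p of at most 0.05 against healthy mice and at most 0.1 for I-BET151 against vehicle. I-BET151 mouse 3 stood apart from the other 11 mice. Its TMM factor was 1.61, its 10 most abundant genes took 7.95% of its counts, against 13.5% to 18.05% in the others, and its hepatocyte markers (Alb, Ttr, Apoa1, Serpina1a, Cps1, Cyp2e1) summed to 22652 CPM. In healthy mice that sum was 110926 to 130494 CPM, in vehicle mice 59132 to 76224 CPM and in the other I-BET151 mice 75013 to 91501 CPM. It was thus lower in every STAM mouse than in every healthy mouse. Most of the sum was Alb, with a mean of 81119 CPM in healthy mice. Vehicle and healthy mice overlapped in Cps1 (4763 to 7367 and 6920 to 8217 CPM) and Cyp2e1 (4837 to 8993 and 8692 to 11214 CPM). The Kupffer cell markers summed to 151 to 216 CPM in healthy, 251 to 483 CPM in vehicle and 182 to 431 CPM in I-BET151 mice. I-BET151 mouse 3 had the lowest total count, 34711229, and I-BET151 mouse 2 the next, 35171038. The study left out an I-BET151 sample for low gene counts and did not name it. All 4 are therefore kept here, and values without mouse 3 are given where they differ. Without it, 3779 genes instead of 1195 differed between vehicle and healthy mice, since the groups share an estimate of the spread.

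Hamp stood out for how much it varied within groups, not between them. The 4 healthy mice had 213, 354, 143 and 151 CPM. The vehicle mice had 164, 534, 10.3 and 119 CPM, and the I-BET151 mice 6.65, 438, 113 and 49.2 CPM. The range of healthy mice lay inside that of both STAM groups, with the highest value in vehicle mouse 2 and the lowest in I-BET151 mouse 1, an 80.4-fold range over all mice. Within groups the highest mouse exceeded the lowest by 2.47-fold in healthy mice, 52.1-fold in vehicle mice and 65.9-fold in I-BET151 mice. The within-group SD of Hamp was 2.04 on the log2 CPM scale, against a median of 0.33 over all tested genes, and only 4 of the 16823 genes had a larger one.

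**Figure D1:**
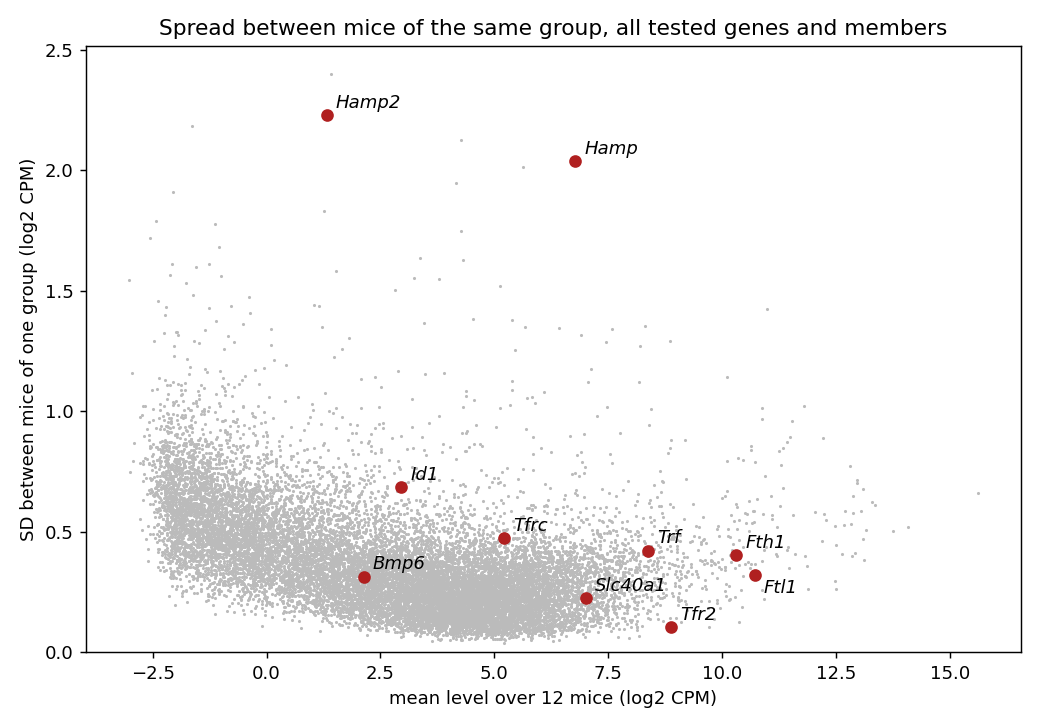
Each grey point is a tested gene, with its mean level over the 12 mice in log2 CPM on the x axis and the pooled SD between mice of the same group in log2 CPM on the y axis, and red points are the 10 iron and BMP-hepcidin genes. Hamp and Hamp2 sit at the top, at 2.04 and 2.23, while Tfr2 at 0.10 is among the steadiest genes.

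With this spread no difference between groups in Hamp passed the test. The log2 fold change was -0.06 (SE 1.01, adjusted p = 0.982, edgeR) for vehicle against healthy, -0.45 (SE 1.01, adjusted p = 0.951, edgeR) for I-BET151 against vehicle and -0.51 (SE 1.01, adjusted p = 0.756, edgeR) for I-BET151 against healthy. The sign for I-BET151 against vehicle rested on vehicle mouse 2, without which the value was 0.63. An SE of this size leaves differences of up to several-fold in either direction undetectable with 4 mice per group.

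Hamp2, whose product is not known to lower blood iron as hepcidin does, had 13.7 CPM per kb of exon in healthy mice, against 525 for Hamp. Per mouse, healthy mice had 10.9, 7.23, 4.39 and 9.43 CPM, vehicle mice 4.57, 18.7, 0.406 and 2.31 CPM, and I-BET151 mice 0, 5.90, 2.03 and 0.299 CPM. The same mice were highest and lowest as for Hamp, vehicle mouse 2 and I-BET151 mouse 1, and the groups overlapped. The log2 fold change of I-BET151 against healthy was -2.004 (SE 1.09, adjusted p = 0.221, edgeR) and that of I-BET151 against vehicle -1.71 (SE 1.09, adjusted p = 0.720, edgeR), neither past its threshold. It had the second largest spread of all tested genes, an SD of 2.23 on the log2 CPM scale.

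The share of Hamp2 in the counts of both paralogs does not depend on library scaling. It was 4.87%, 2.003%, 2.97% and 5.87% in healthy mice and 2.71%, 3.39%, 3.81% and 1.91% in vehicle mice. In the I-BET151 mice it was 0%, 1.33%, 1.76% and 0.604%, below every mouse of the other groups. I-BET151 mouse 1 had 0 Hamp2 counts beside 369 of Hamp, which allows a share of up to 0.813% if 3 counts are taken as the limit of a count of 0, and of up to 1.03% as a 95% Wilson limit. The gap between the groups was narrow: the 95% Wilson interval of I-BET151 mouse 3, 1.46% to 2.11%, overlapped that of vehicle mouse 4, 1.59% to 2.30%. The intervals cover counting error only, the share was not tested, and reads lost between the paralogs move with the level of both.

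**Figure D2:**
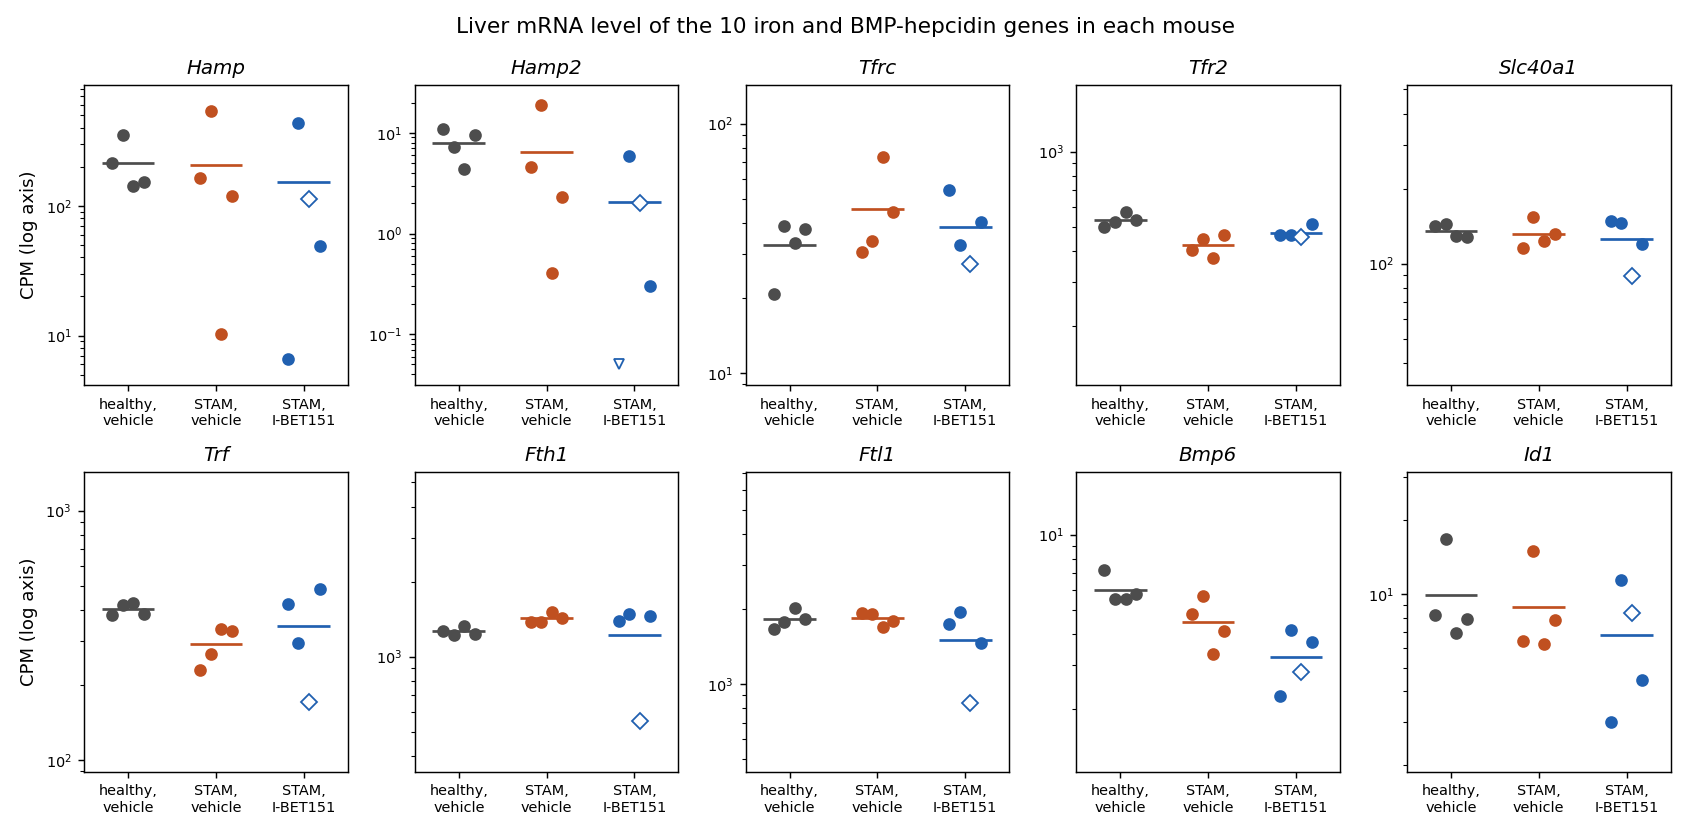
Each panel shows 1 gene, with CPM on a log axis for each mouse of the 3 groups and a line at the group mean. The open diamond is I-BET151 mouse 3 and the open triangle is 0 CPM drawn at the bottom. Hamp and Hamp2 span more than a factor of 10 within each STAM group, Bmp6 is lower in all 4 I-BET151 mice than in every healthy mouse, and Fth1 and Ftl1 are lowest in I-BET151 mouse 3.

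Bmp6, the endothelial ligand that reports iron stores to hepatocytes, was the 1 gene of the 10 that passed in the edgeR fit of all 12 mice. It was present at 7.24, 5.54, 5.52 and 5.75 CPM in healthy mice, 4.78, 5.66, 3.31 and 4.10 CPM in vehicle mice and 2.25, 4.16, 2.81 and 3.72 CPM in I-BET151 mice. All 4 I-BET151 mice lay below all 4 healthy mice, and the vehicle mice overlapped both. Bmp6 fell by 0.90 on the log2 scale in I-BET151 against healthy mice (SE 0.22, adjusted p = 0.0161, edgeR), from 6.01 ± 0.823 to 3.24 ± 0.862 CPM (SD, n = 4). In that comparison 15.1% of all tested genes were called, so a count of 1 in 10 is near the background. The difference was -0.43 (SE 0.22, adjusted p = 0.263, edgeR) for vehicle against healthy and -0.47 (SE 0.22, adjusted p = 0.576, edgeR) for I-BET151 against vehicle, and neither step passed by itself. Each pair of these comparisons shares the mice of a group.

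The Bmp6 call against healthy mice held in each fit that left out a mouse, with adjusted p-values from 0.00863 to 0.0416 in edgeR, and without I-BET151 mouse 3 the log2 fold change was -0.86, with 20.4% of all genes called. It was lost with the sequencing lane as a covariate, where the value was -0.84 (SE 0.28, adjusted p = 0.267, edgeR) and 85 genes were called in all. Healthy and I-BET151 mice shared 2 lanes. In lane 2 healthy mouse 1 had 7.24 CPM and I-BET151 mouse 4 had 3.72 CPM. In lane 5 healthy mouse 4 had 5.75 CPM and I-BET151 mouse 2 had 4.16 CPM. Since these groups do not overlap in Bmp6, any such pair must show this order, and the pairs do not test the lane. The endothelial markers (Pecam1, Cdh5, Kdr, Stab2, Clec4g, Lyve1) were at 0 in no mouse. They summed to 256 to 381 CPM in healthy, 279 to 355 CPM in vehicle and 270 to 357 CPM in I-BET151 mice, which overlap. The sum joins markers that moved apart. Kdr had 57.0 to 80.0 CPM in healthy mice and less in every STAM mouse, 42.4 to 55.9 CPM with vehicle and 35.1 to 56.9 CPM with I-BET151. The mean of Lyve1 was 39.9, 57.9 and 55.5 CPM in healthy, vehicle and I-BET151 mice. In each marker but Kdr the healthy mice overlapped both STAM groups. In whole liver, fewer cells of a type and less RNA per cell cannot be told apart.

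Id1, a direct target gene of BMP-SMAD signaling, followed Hamp more than it followed the groups. Healthy mice had 8.19, 16.7, 6.92 and 7.94 CPM, vehicle mice 6.42, 14.9, 6.23 and 7.83 CPM, and I-BET151 mice 3.01, 11.4, 8.32 and 4.43 CPM. The highest mouse of each group in Id1 was also its highest in Hamp. No difference passed the test, with log2 fold changes of -0.17 (SE 0.41), -0.39 (SE 0.41) and -0.56 (SE 0.41) for vehicle against healthy, I-BET151 against vehicle and I-BET151 against healthy.

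When the 12 mice were ordered by Hamp, the genes closest to it included its paralog and a BMP-SMAD target. The 3 most like Hamp in log2 CPM among all tested genes were D130020L05Rik (Pearson r = 0.93), Hamp2 (r = 0.92) and Atoh8 (r = 0.90, Spearman rho = 0.94), a transcription factor gene that BMP-SMAD signaling activates. Without the 2 mice farthest from the median in Hamp, r was 0.72, 0.85 and 0.82. Of the other BMP-SMAD target genes listed, r with Hamp was 0.84 for Id1, 0.74 for Smad7, 0.72 for Id3, 0.26 for Id2, 0.18 for Smad6, 0.21 for Id4 and -0.14 for Bambi. Without the same 2 mice it was 0.90, 0.75, 0.78, 0.83, 0.25, 0.024 and 0.015 in that order, so the value for Id2 rested on them. These are descriptions over 12 mice that share group, library scaling and cell makeup, and the 3 most alike were picked by their r. Taken as deviations from group means, r was 0.96 for both Hamp2 and Atoh8 and 0.83 for Id1.

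Atoh8 had 10.0, 25.5, 16.2 and 15.7 CPM in I-BET151 mice, 23.3, 31.98, 14.4 and 21.4 CPM in vehicle mice and 30.3, 39.1, 24.6 and 24.9 CPM in healthy mice. Its log2 fold change of -0.82 for I-BET151 against healthy did not pass the threshold (SE 0.28, adjusted p = 0.0608, edgeR). The globin transcripts of red cells ran the other way. The summed level of the globin genes Hba-a1, Hba-a2, Hbb-bs and Hbb-bt was 817, 1615 and 767 CPM in the 3 mice with least Hamp (I-BET151 mouse 1, vehicle mouse 3 and I-BET151 mouse 4). In the 3 with most Hamp (healthy mouse 2, I-BET151 mouse 2 and vehicle mouse 2) it was 152, 221 and 88.9 CPM. Vehicle mouse 4 and healthy mouse 1 had 795 and 574 CPM with middle levels of Hamp. Over the 12 mice r between Hamp and this sum on log2 scales was -0.79 (rho = -0.78), and -0.73 without the 2 mice farthest from the median in Hamp. Alas2, a further erythroid marker, did not show this order, at 34.7, 33.2 and 29.1 CPM in the 3 mice with least Hamp and 45.6, 31.1 and 26.2 CPM in the 3 with most. With Alas2 added the erythroid sum was 198 to 619 CPM in healthy, 115 to 1649 CPM in vehicle and 252 to 851 CPM in I-BET151 mice, with none of these 5 genes at 0 in a mouse, and its part in the spread of Hamp was not tested.

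**Figure D3:**
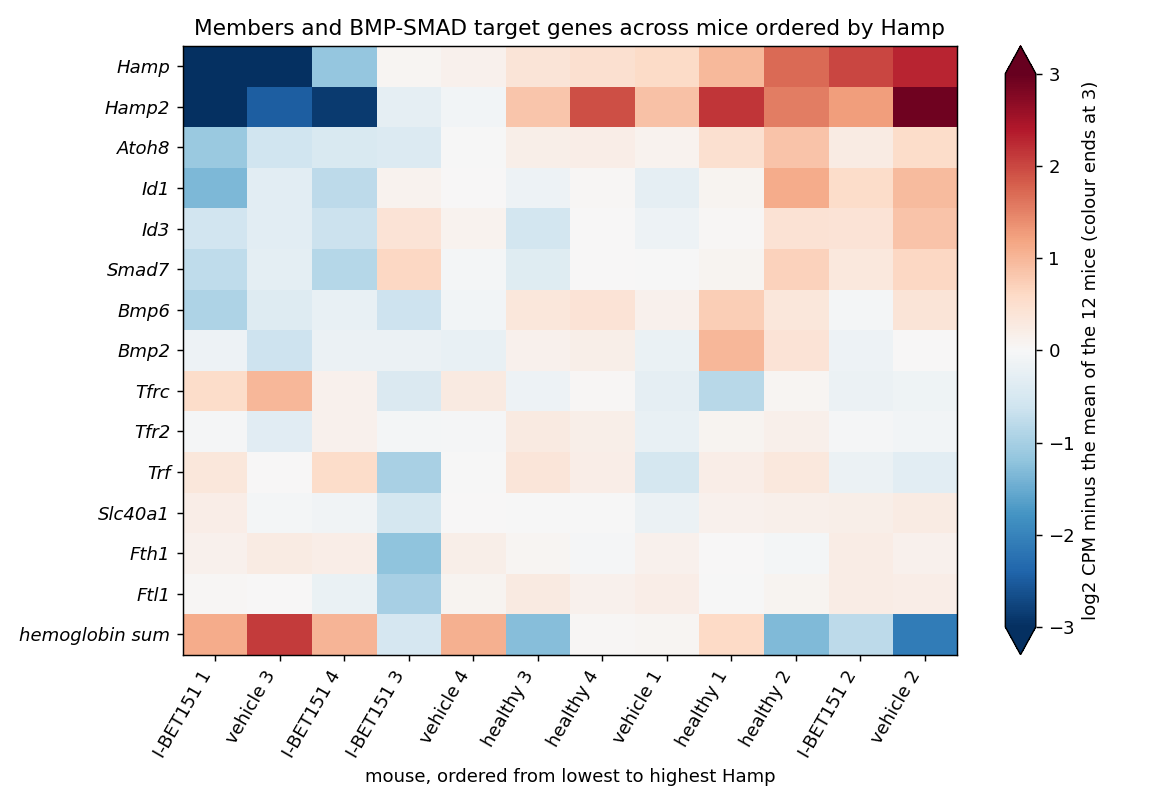
The columns are the 12 mice ordered from lowest to highest Hamp, the rows are genes, and the color is log2 CPM minus the mean of the 12 mice, with the scale ending at 3 in each direction. Hamp2, Atoh8 and Id1 go from blue to red with Hamp, the hemoglobin sum goes mostly the other way, and mice of the 3 groups are mixed along the order.

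Tfrc, which brings transferrin-bound iron into cells and whose mRNA carries the 4 hairpins printed above, was highest in the 2 mice with least Hamp. Vehicle mice had 30.7, 33.8, 73.6 and 44.4 CPM, and I-BET151 mice 54.3, 32.7, 27.3 and 40.2 CPM. Healthy mice had 20.8, 38.8, 33.1 and 37.7 CPM. The top values, 73.6 and 54.3 CPM, were those of vehicle mouse 3 and I-BET151 mouse 1. The Pearson r between Hamp and Tfrc was -0.72, but without these 2 mice, which are also the farthest from the median in Hamp, it was -0.18, so the relation rested on them. No difference between groups passed, the log2 fold changes being 0.49 (SE 0.29, adjusted p = 0.349, edgeR) for vehicle against healthy, -0.24 (SE 0.29) for I-BET151 against vehicle and 0.25 (SE 0.29) for I-BET151 against healthy. The 3 genes most like Tfrc were Slc26a2 (r = 0.92), Postn (r = 0.86) and Cep170 (r = 0.86), and for Bmp6 they were Proser2 (r = 0.97), Psen2 (r = 0.95) and Fxyd1 (r = 0.95), again over 12 mice and as descriptions. Without the 2 mice farthest from the median in Tfrc, r was 0.72, 0.62 and 0.47. Without the 2 farthest in Bmp6, r was 0.95, 0.92 and 0.89.

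Tfr2, the receptor by which hepatocytes sense transferrin loaded with iron, was the steadiest of the 10, and lower in every vehicle mouse than in every healthy mouse. It had 500.1, 523, 572 and 530.0 CPM in healthy mice and 404, 445, 374 and 463 CPM in vehicle mice. The I-BET151 mice, at 461, 462, 452 and 513 CPM, overlapped both. The log2 fold change of vehicle against healthy was -0.33 (SE 0.14) and missed the threshold in the fit of all mice (adjusted p = 0.188, edgeR). It passed in DESeq2 (adjusted p = 0.0222), in the edgeR fit of these 2 groups (adjusted p = 0.0291) and in edgeR without I-BET151 mouse 3 (adjusted p = 0.0277), a mouse that is in neither group. In DESeq2 10.2% of genes were called, in the fit of the 2 groups 3879 of 16198, and without that mouse 22.3%. The hepatocyte marker sum given above, most of it Alb, was also lower in every vehicle mouse than in every healthy mouse. Its markers Cps1 and Cyp2e1 overlapped between these groups, and the part of the sum in the values of Tfr2 was not tested.

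Trf, the transferrin that hepatocytes secrete, was also lower in every vehicle mouse than in every healthy mouse, as the hepatocyte marker sum was, whose part here was not tested either. Healthy mice had 381, 416, 424 and 384 CPM, vehicle mice 229.8, 266, 336 and 330.1 CPM, and I-BET151 mice 423, 294, 169.8 and 485 CPM. The I-BET151 mice spread over both groups, and mouse 3, with the lowest hepatocyte sum, was the lowest of all. The log2 fold change of vehicle against healthy was -0.47 (SE 0.26, adjusted p = 0.324, edgeR), and it passed in the fit of these 2 groups (adjusted p = 0.0242, edgeR) and without I-BET151 mouse 3 (adjusted p = 0.0485, edgeR). Those fits called 3879 of 16198 genes and 22.3% of all genes. For I-BET151 against vehicle the log2 fold change was 0.24 (SE 0.26, adjusted p = 0.866, edgeR), and 0.47 (SE 0.17, adjusted p = 0.192, edgeR) without mouse 3. DESeq2 without mouse 3 called Trf higher, at 0.48 (SE 0.18, adjusted p = 0.0990), among 1287 genes called.

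The ferritin chains Fth1 and Ftl1, which together form the shell that stores iron, were both lowest in I-BET151 mouse 3. Fth1 had 1269.9, 1221, 1321 and 1236 CPM in healthy mice, 1377, 1382, 1503 and 1432 CPM in vehicle mice and 1389, 1485, 552 and 1456 CPM in I-BET151 mice. Every vehicle mouse exceeded every healthy mouse, by a log2 fold change of 0.17 (SE 0.26, adjusted p = 0.746, edgeR) that did not pass. The 3 I-BET151 mice other than mouse 3 lay in the range of the vehicle mice, and their mean was 1443 ± 49.4 CPM (SD, n = 3). Against healthy mice DESeq2 without mouse 3 called Fth1 higher, at 0.19 (log2, SE 0.067, adjusted p = 0.0281), among 4092 genes called.

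Ftl1 had 1661, 1767, 2021 and 1824 CPM in healthy mice, 1934, 1915, 1698 and 1788 CPM in vehicle mice and 1736, 1951, 841 and 1463 CPM in I-BET151 mice. The groups overlapped, with mouse 3 again the lowest and mouse 4 next, below every healthy and vehicle mouse. The log2 fold change of I-BET151 against vehicle was -0.29 (SE 0.24, adjusted p = 0.805, edgeR) and -0.09 without mouse 3. The ratio of Fth1 to Ftl1 CPM was 0.656 in mouse 3, against 0.654 to 0.765 in healthy mice and 0.712 to 0.885 in vehicle mice. It reached 0.995 in the I-BET151 mice, and mouse 3 had the lowest ratio of the 8 STAM mice. The pseudogene Ftl1-ps1 was assigned between 12332 and 27651 counts per mouse, so some Ftl1 reads may be counted there.

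Slc40a1, the exporter that hepcidin removes, was steady. It had 142, 144, 129 and 128 CPM in healthy mice, 116, 153, 123 and 132 CPM in vehicle mice and 148, 145, 89.3 and 119.7 CPM in I-BET151 mice. The groups overlapped in each comparison. The log2 fold changes were -0.05 (SE 0.16) for vehicle against healthy, -0.06 (SE 0.16) for I-BET151 against vehicle and -0.11 (SE 0.16) for I-BET151 against healthy. Hepcidin acts on the ferroportin protein, which was not measured here.

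**Figure D4:**
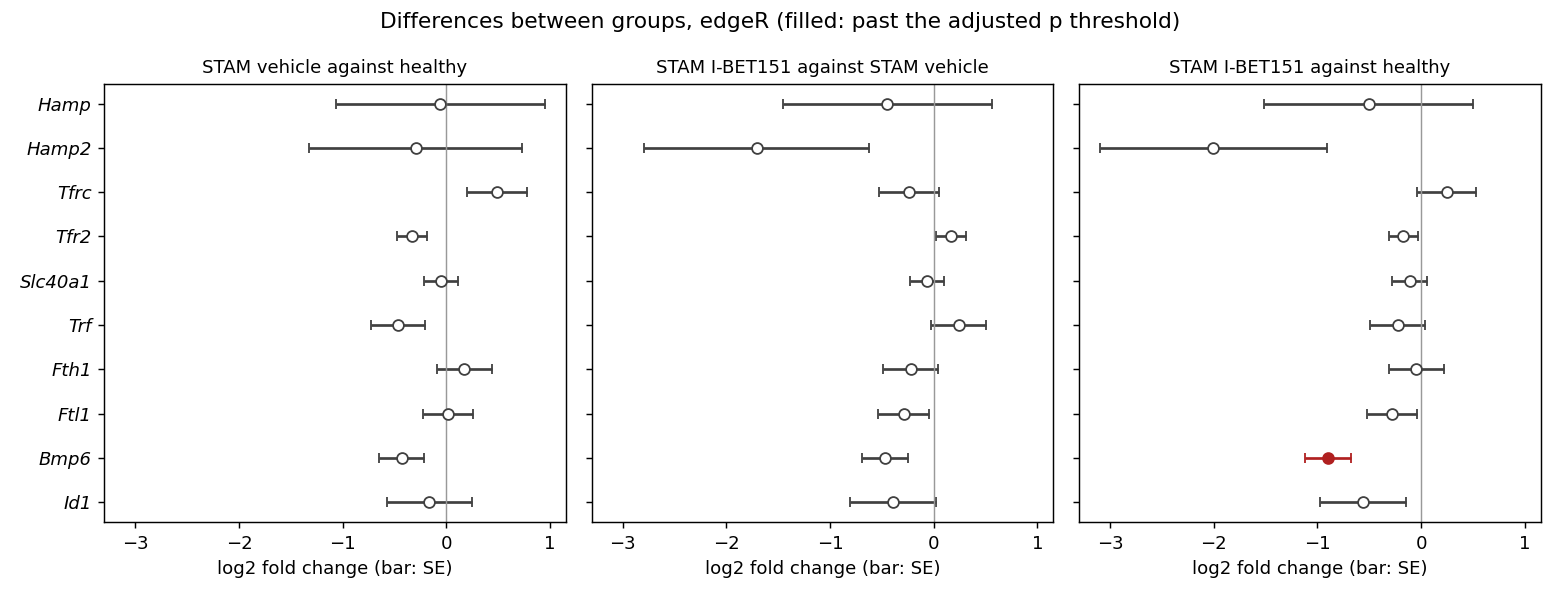
The x axis is the log2 fold change in each of the 3 comparisons, with bars for the SE, for each of the 10 genes on the y axis, and filled red points pass the adjusted p threshold. Only Bmp6 in I-BET151 against healthy mice, at -0.90, is filled, and the bars of Hamp and Hamp2 are the widest in each panel.

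Counted over the 10 genes, 0 were called for vehicle against healthy in edgeR, where 7.1% of all tested genes were. There 1 of the 10, Tfr2, had an unadjusted p under 0.05, as did 3749 of all 16823 genes in edgeR. DESeq2 called 1, beside 10.2% of all genes. For I-BET151 against vehicle 0 were called in edgeR and 0 in DESeq2, against a background of 0.351% of all genes in edgeR and 1.48% in DESeq2. An unadjusted p under 0.05 in edgeR was reached there by 0 of the 10 and by 1460 of all 16823 genes. For I-BET151 against healthy 1, Bmp6, was called by each tool, where DESeq2 called 17.8% of all genes. The groups did not overlap in 3 of the 10 for vehicle against healthy (Tfr2, Trf and Fth1) beside 26.4% of all tested genes, in 0 for I-BET151 against vehicle beside 5.04%, and in 1 (Bmp6) for I-BET151 against healthy beside 19.8%. The median log2 fold change over the 10 was -0.11, -0.27 and -0.25 in that order, and over all tested genes 0.01, 0.02 and 0.06. Without I-BET151 mouse 3 the median over the 10 was -0.14, -0.09 and -0.13, and over all tested genes -0.01, 0.004 and -0.009.

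Levels can be set against each other only per length. In healthy mice, per kilobase of annotated exons, Ftl1 came first with 1357 ± 113 CPM per kb (SD, n = 4), then Hamp with 525 ± 238, Fth1 with 364 ± 12.8, Tfr2 with 123 ± 6.93, Trf with 121 ± 6.71, Slc40a1 with 15.1 ± 0.914, Hamp2 with 13.7 ± 4.87, Id1 with 8.57 ± 3.92, Tfrc with 5.27 ± 1.34 and Bmp6 with 1.54 ± 0.211 CPM per kb. The differences between Hamp and Fth1, between Tfr2 and Trf, between Slc40a1 and Hamp2, and between Id1 and Tfrc were within the larger SD of each pair. With the longest transcript as the length, Fth1 at 612 CPM per kb passed Hamp, and Slc40a1 rose from 15.1 to 34.5 CPM per kb. The order of the 2 receptors, Tfr2 far above Tfrc, held with both lengths, 173 against 6.66 CPM per kb with the latter.

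The rest of the pathway was followed in 7 lists with 145 genes, of which 142 were found and 133 tested. Between vehicle and healthy mice 8 of the 133 were called, 6 higher and 2 lower, a share of 6.02% beside 7.1% of all genes. Of the 29 BMP-SMAD genes tested 2 were called. Bmp2, the endothelial BMP that sets basal hepcidin, had 32.3, 21.7, 17.7 and 18.2 CPM in healthy mice and 14.1, 16.5, 10.5 and 13.98 CPM in vehicle mice, and fell by 0.71 (log2, SE 0.19, adjusted p = 0.0359, edgeR). Fstl1, a secreted follistatin-like protein, rose by 0.80 (log2, SE 0.20, adjusted p = 0.0272, edgeR). The median of this list was -0.07, beside 0.01 for all genes.

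Outside the BMP list, Alas1, the first enzyme of heme synthesis in liver, rose from 489 ± 182 to 1065 ± 218 CPM (SD, n = 4, log2 fold change 1.12, adjusted p = 0.0234, edgeR). Flvcr1, a transporter that has been described as a heme exporter, rose by 0.57 (log2, adjusted p = 0.0350, edgeR). Lcn2, which binds the siderophores with which bacteria take up iron, went from 5.96 to 10.3 CPM in healthy mice to 41.7 to 185 CPM in vehicle mice (adjusted p = 0.0381, edgeR). The cytokine Lif and the transferrin homolog Meltf were also called higher, but rest on 0 to 3 and 1 to 5 counts per healthy mouse, so no fold is given. Tspan33, a tetraspanin on the iron storage and chaperone list, fell by 0.50 (log2, adjusted p = 0.0429, edgeR). In the iron sensing list 0 of 12 and in the iron-sulfur and mitochondrial list 0 of 26 were called in edgeR, with 2 and 5 at an unadjusted p under 0.05, and DESeq2 called 0 in both. Of all 16823 genes, 3749 had an unadjusted p under 0.05 in edgeR. Leaving out a healthy or vehicle mouse gave 1 to 6 calls among the 133 in place of 8, and 1 each without healthy mouse 3 or vehicle mouse 3. Over all genes these fits called 546 to 1237 in place of 1195, and 546 each without healthy mouse 3 or vehicle mouse 3. Of the 12 fits, Meltf lost its call in 2, Bmp2 in 5, Fstl1 and Alas1 in 6 each, Lcn2, Lif and Flvcr1 in 7 each and Tspan33 in 8. Without I-BET151 mouse 3, 39 of the 133 were called, 14 higher and 25 lower, with 22.3% of all genes called in that fit. With the lane covariate 0 of the 133 were called in edgeR, 7 with an unadjusted p under 0.05, beside 37 and 1298 of all 16823 genes.

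Between I-BET151 and vehicle mice 0 of the 133 list genes were called in edgeR, 14 had an unadjusted p under 0.05, and DESeq2 called 2 of 140, Flvcr1 and Flvcr2. Over all genes edgeR called 0.351%, 1460 of 16823 had an unadjusted p under 0.05, and DESeq2 called 1.48%. In limma-voom with sample weights 14 of the 133 were called, 9 higher and 5 lower, beside 1205 of all 16823 genes. With no filter edgeR called 1 of 140, beside 101 of 29576 genes. With at least 10 counts in every mouse it called 1 of 131, beside 62 of 14219 genes. The heme and choline transporter gene Flvcr2 had 6.47, 6.89, 8.41 and 7.72 CPM in vehicle mice and 13.2, 15.5, 8.14 and 15.9 CPM in I-BET151 mice. Mouse 3, at 8.14 CPM, was the only I-BET151 mouse within the vehicle range. Without it Flvcr2 rose by 1.02 (log2, SE 0.12, adjusted p = 0.00299, edgeR), back above the healthy mice at 9.62 to 11.4 CPM. In that fit 2 of the 133 were called, the other being Saa2, and 2.38% of all genes. Flvcr2 was picked by these alternatives after its values were seen.

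Between I-BET151 and healthy mice 20 of the 133 were called, 13 higher and 7 lower, a share of 15.0% beside 15.1% of all genes. The list of IL-6 and STAT3 input held 5 of the 13, all higher, or 29.4% of its 17 tested genes. Its median was 0.31, beside 0.06 for all genes. Of these 5, Saa1, Saa2, Lcn2 and Socs3 were each highest in I-BET151 mouse 4, and Lif in I-BET151 mouse 3. Saa1, an acute phase protein of hepatocytes, had 308, 46.3, 9.74 and 1839.9 CPM in I-BET151 mice, 42.2, 158, 97.9 and 56.9 CPM in vehicle mice and 11.5, 5.64, 21.7 and 15.2 CPM in healthy mice. In I-BET151 mice it ranged from a value within the healthy range in mouse 3 to one above every vehicle mouse in mouse 4. Saa2 had 131, 19.97, 4.03 and 1237 CPM in I-BET151 mice and 2.15 to 5.29 CPM in healthy mice, and followed the same order. Lcn2 had 171, 40.6, 12.1 and 566 CPM in I-BET151 mice, all above the healthy mice.

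Socs3, the feedback inhibitor that STAT3 induces, rose by 1.20 against healthy mice (log2, SE 0.26, adjusted p = 0.00902, edgeR). It had 26.3, 12.5, 23.8 and 33.5 CPM in I-BET151 mice and 9.59 to 11.87 CPM in healthy mice, which do not overlap. Vehicle mice, at 11.97 to 22.4 CPM, also lay above every healthy mouse, by 0.58 (log2, SE 0.26, adjusted p = 0.201, edgeR), which was not called. Il6 itself had at most 10 counts in any mouse. The r between Hamp and Socs3 over the 12 mice was -0.70 (rho = -0.61), and -0.62 without the 2 mice farthest from the median in Hamp, as a description.

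Bmp2 was also lower in I-BET151 than in healthy mice, at 14.5, 14.7, 14.3 and 14.3 CPM, by 0.64 (log2, SE 0.19, adjusted p = 0.0338, edgeR). The groups did not overlap, and the value against vehicle was 0.07 (SE 0.19), with all 4 I-BET151 mice inside the range of the vehicle mice. The activin receptor gene Acvr2a (14.7 to 27.7 CPM in healthy, 7.62 to 16.2 CPM in I-BET151 mice) also fell against healthy mice (log2 fold change -0.76, adjusted p = 0.0466, edgeR). In the BMP-SMAD list 4 of 29 were called in this comparison, 1 higher (Fstl1) and 3 lower (Bmp2, Acvr2a and Hfe). Its median was -0.18, beside 0.06 for all genes. Hfe had a mean of 48.2 CPM in healthy and 32.1 CPM in I-BET151 mice, without overlap (log2 fold change -0.59, SE 0.15, adjusted p = 0.0217, edgeR).

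Alas2, the erythroid form of the first heme enzyme, was the list gene with the largest decrease. It had 45.6, 45.6, 67.8 and 59.0 CPM in healthy mice and 34.7, 31.1, 16.01 and 29.1 CPM in I-BET151 mice, and fell by 0.98 (log2, SE 0.22, adjusted p = 0.0115, edgeR). These groups did not overlap. Vehicle mice, at 32.3, 26.2, 33.2 and 40.1 CPM, also lay below every healthy mouse. Their log2 fold change against healthy mice was -0.73 (SE 0.22, adjusted p = 0.0629, edgeR), not called, while DESeq2 called it (adjusted p = 0.0309). The globin sum above, of other erythroid genes, ranged from 152 to 574 CPM in healthy and from 221 to 817 CPM in I-BET151 mice. The metal transporter gene Slc39a8 (-0.75, adjusted p = 0.0228), Bola3 of iron-sulfur cluster assembly (-0.65, adjusted p = 0.0149) and Bdh2, an enzyme linked to a mammalian siderophore (-0.87, adjusted p = 0.0330), were lower as well (log2 fold changes, edgeR). In these genes too every vehicle mouse lay below every healthy mouse, with none called in the edgeR fit of all mice. For I-BET151 against vehicle, Alas2, Slc39a8, Bola3 and Bdh2 were at -0.25, -0.27, -0.28 and -0.31 (log2), none called. Without mouse 3 these values were -0.05, -0.06, -0.12 and -0.29. Mouse 3 was the lowest of the I-BET151 mice in Alas2, Acvr2a, Slc39a8 and Bola3, and each of these stayed past the threshold without it. Saa1, Saa2, Lcn2, Socs3, Alas2, Bola3, Flvcr1, Mcoln1, Pcbp3, Lif and Meltf were called in all 12 fits that left out a mouse. Fstl1 lost its call in 1 of them, Alas1 and Ciapin1 in 2 each, and Hfe and Arnt in 3 each. Bmp2 lost its call in 4 (adjusted p up to 0.0783, edgeR), Slc39a8 in 3, Bdh2 in 5 and Acvr2a in 9. The number of list genes called was 13 without healthy mouse 2 or 3, 38 without I-BET151 mouse 2 and 34 without I-BET151 mouse 3. Over all genes these 4 fits called 1329 of 17219, 1292 of 17243, 3731 of 17178 and 3464 of 16967, in that order. With the lane covariate 0 of the 133 were called in edgeR, 15 with an unadjusted p under 0.05, beside 85 and 2046 of all 16823 genes. Alas2 was 45.6 CPM in healthy mouse 1 and 29.1 CPM in I-BET151 mouse 4 of lane 2. In lane 5 it was 59.0 CPM in healthy mouse 4 and 31.1 CPM in I-BET151 mouse 2. Since healthy and I-BET151 mice do not overlap in Alas2, any such pair must show this order, and the pairs do not test the lane.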

How the data were processed

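RNA-seq libraries from 12 mouse livers were analysed. The authors mapped reads with STAR 2.5.1b to mm10 and deposited raw counts per gene from uniquely mapped reads, per mouse and without normalization. HTSeq is named for counting in the methods. Groups and replicate numbers were taken from sample titles, and symbols from GENCODE M21 by gene ID (47310 of 47729 matched).

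Counts were tested with edgeR 4.0.16 in R 4.3.3 (TMM, filterByExpr with a minimum count of 10, glmQLFTest, all 3 groups in 1 fit, Benjamini-Hochberg adjustment). The SE is the log2 fold change divided by the square root of F. Pearson r used log2 CPM with a prior count of 2. The fit was tested on simulated counts. Total counts of 34711229 to 53365596 put 1 count at 0.0179 to 0.0301 CPM. Counts of every 2 mice in a group differed by more than sampling noise (chi-square per degree of freedom at least 30.5). Each library is a separate mouse, so p-values measure the spread between mice.

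Alternatives were DESeq2 1.42.0, RLE factors, other filters, 2-group fits, the replicate number as a block, the lane in the file name as a covariate, limma-voom 3.58.1 with sample weights, each mouse left out, and transcript in place of exon length. DESeq2 and 2-group fits without I-BET151 mouse 3 were added after seeing the data. The 10 genes and the lists were chosen with earlier results of these data known. Of the lists, at most 6 called genes per direction and comparison are named by size, besides the 3 genes most like Hamp, Tfrc and Bmp6, and others where a result turned on them. The promoter table held no window for Slc40a1, Trf and Id1. 1 erythroid marker is not reported here.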

Additional observations from a re-analysis of the deposited data

Results flagged for a closer look

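In 4 of the 30 sets of 4 mice (10 genes in 3 groups), the gap of 1 mouse to the others, as a part of the group's range, was above the 95% critical value of Dixon's test, which chance passes in about 1 of 20 sets. Fth1 in I-BET151 mouse 3 was 552 CPM, below the 1389 to 1485 CPM of the other 3 mice. Tfr2 in I-BET151 mouse 4 was 513 CPM, above 452 to 462 CPM. Bmp6 in healthy mouse 1 was 7.24 CPM, above 5.52 to 5.75 CPM, and without this mouse the decrease against healthy mice was -0.79 (log2, adjusted p = 0.0402, edgeR). Id1 in healthy mouse 2 was 16.7 CPM, above 6.92 to 8.19 CPM, in the healthy mouse with the most Hamp, 354 CPM.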

How the results depend on the processing

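The counts of called genes moved far more than the values of the 10 genes. For vehicle against healthy (1195 genes, 0 of the 10), DESeq2 called 1910 genes and 1 of the 10 (Tfr2), the fit of 2 groups 3879 and 2, limma-voom with sample weights 5672 and 2, DESeq2 without I-BET151 mouse 3 4369 and 2, and the lane covariate 37. For I-BET151 against vehicle (59 genes, 0 of the 10), DESeq2 called 268, no low-count filter 101, the fit of 2 groups 8, the lane covariate 0, limma-voom 1205, and without mouse 3 the 2-group fit called 249 and DESeq2 1287, with 1 of the 10 (Trf). For I-BET151 against healthy (2546 genes, 1 of the 10), the 2-group fit called 1262, limma-voom 4880, the lane covariate 85 and 0 of the 10, and DESeq2 without mouse 3 4092 and 2 (Bmp6 and Fth1). Leaving out 1 mouse gave 546 to 3779, 13 to 403 and 1292 to 3731 genes and 0 to 2, 0 to 0 and 1 to 1 of the 10, in the same order of comparisons.

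The replicate numbers did not pair the mice (correlations of same-numbered mice averaged -0.07, -0.06 and -0.15). With the number as a block, 742, 10 and 1573 genes were called, Ftl1 for vehicle against healthy was -0.0032, no call among the 10 changed, and 3, 0 and 13 of the 133 list genes were called in place of 8, 0 and 20. Limma-voom called 53, 14 and 49 of the 133, beside 5672, 1205 and 4880 of all 16823 genes.

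Signs turned only where the main value missed its threshold. For vehicle against healthy, the lane covariate gave Slc40a1 0.0092 and Id1 0.20, limma-voom gave Slc40a1 0.010, and Ftl1 was -0.012 in DESeq2, -0.0064 with RLE, -0.0026 in the 2-group fit and -0.0066 in DESeq2 without mouse 3. For I-BET151 against vehicle, limma-voom gave Tfrc 0.061, and without mouse 3 the 2-group fit and DESeq2 gave Slc40a1 0.070 and 0.084 and Fth1 0.019 and 0.033. For I-BET151 against healthy these 2 gave Slc40a1 0.027 and 0.016 and Fth1 0.20 and 0.19, the 2-group fit without mouse 3 and limma-voom gave Trf 0.0061 and 0.042, and Fth1 was 0.10 with the lane covariate and 0.17 in limma-voom. The cause of these turns was not tested. Leaving out 1 mouse gave ranges across 0 for vehicle against healthy in Hamp (-1.14 to 0.34), Hamp2 (-1.73 to 0.10), Slc40a1 (-0.14 to 0.0033), Ftl1 (-0.027 to 0.057) and Id1 (-0.54 to 0.20), for I-BET151 against vehicle in Hamp (-1.89 to 0.63), Tfrc (-0.45 to 0.088), Slc40a1 (-0.15 to 0.080) and Fth1 (-0.33 to 0.029), and for I-BET151 against healthy in Slc40a1 (-0.20 to 0.0075) and Fth1 (-0.15 to 0.18).

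Depth limits Hamp2, which had 0, 13 and 21 counts in I-BET151 mouse 1, I-BET151 mouse 4 and vehicle mouse 3, whereas each of the other 9 genes had at least 125 counts in every mouse. The mean Hamp2 share stayed at 3.28% to 4.57% in healthy, 2.67% to 3.30% in vehicle and 0.645% to 1.23% in I-BET151 mice when 1 mouse was left out.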
